A study of Mus musculus with 21 samples.

Results

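Cell cycle genes were followed in IgA+ plasma cells (PCs) of the mouse small intestine, as 35 genes named for their part in mitosis, DNA replication or nucleotide supply. They were taken by gene symbol from a table of 53801 genes. All 35 were found once and all 35 passed the filter on low counts, a total of at least 10 reads over all mice, which kept 20256 genes. Each mouse gave 1 library of poly-A RNA from sort-purified CD138+ IgA+ cells that were CD45+, CD3-, CD5-, NK1.1-, B220- and IgD-, with MHCII either present or absent. There were 6 control mice at ZT0, 6 control mice at ZT12, 4 knockout mice at ZT0 and 5 knockout mice at ZT12, all C57BL/6, where zeitgeber time (ZT) counts hours from lights on in a 12 h light and 12 h dark cycle. Control mice were Mb1Cre-/- x Arntlfl/fl and knockout mice Mb1Cre+/- x Arntlfl/fl, so both carried the floxed Arntl alleles and the knockout mice also carried the Cre. Arntl encodes the clock protein Bmal1, and Mb1 is Cd79a, a gene switched on early in the B cell lineage, so that deletion precedes the PC stage and is not limited to it. Genotypes were read from the sample titles, because the genotype field of 8 of the 9 knockout mice names the control genotype.

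An IgA+ PC arises when an activated B cell divides as a plasmablast, leaves the cell cycle and settles in the lamina propria to secrete IgA. Cells copy their DNA in S phase with the MCM helicase, the clamp PCNA and enzymes that make deoxynucleotides. They then divide under the cyclin-dependent kinase CDK1 and its cyclins, which set off spindle assembly and chromosome segregation. Most of these genes are transcribed in dividing cells and silenced on exit from the cycle, through promoter elements read by E2F factors (S phase genes) and by the DREAM and MuvB complexes (CHR elements and CCAAT boxes of mitosis genes). RNA from a cell population cannot separate a few dividing plasmablasts from low levels in every PC. Fewer cells of a type and less RNA per cell cannot be told apart in bulk samples, and the sort did not separate plasmablasts from other PCs, so the genes are called cell cycle genes here and not plasmablast genes.

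Between 14471018 and 22785835 reads were counted on genes in each mouse, and immunoglobulin genes took 51.5% to 63.6% of them. Arntl, whose floxed part is removed, was at 6.83 to 8.36 CPM (read counts scaled to a common library size) in control mice at ZT0 and at 4.08 to 6.47 CPM in knockout mice at ZT0. At ZT12 it was at 4.00 to 5.56 CPM in control mice and 3.11 to 4.93 CPM in knockout mice, and these groups overlapped. A count over the whole gene also holds reads outside the deleted part. Cd79a, which carries the Cre, was at 386 CPM or more in all 12 control mice and at 276 CPM or less in all 9 knockout mice, as the titles would have it. Knockout ZT0 replicate 3 stood apart: it had the highest Arntl of the knockout mice, and both the female transcript Xist (428 CPM) and the Y-linked Ddx3y (20.7 CPM). Knockout ZT12 replicate 5 also had both, Xist at 344 CPM and Ddx3y at 2.23 CPM. The medians of the knockout comparisons are given with and without those of these mice that they compare, and single genes only in part. The PC genes Igha and Jchain averaged 304430 and 48827 CPM, whereas the B cell genes Ms4a1 and Pax5 averaged 1.45 and 0.543 CPM.

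Promoters of the members held the elements known for this gene class more often than promoters at large. RefSeq promoters (GRCm38.p6, 250 bases before to 50 bases after the start) were matched by symbol for 29 of the 35 genes, the first being used where a gene had more than 1. The letters searched on both strands were TTTGAA and TTCGAA for the CHR element, CCAAT for the CCAAT box, CACGTG for the E-box bound by Bmal1 and its partner, and TTTCCCGC, TTTGGCGC, TTCCCGCC, TTGGCGCC and TTTCGCGC for E2F sites. The E2F site TTGGCGCC can share bases with a CCAAT box, and the E2F letters can overlap each other. A CHR element stood in 16 of 20 mitosis promoters (80.0%) and in 2 of 9 promoters of replication and nucleotide genes (22.2%), against 19.4% of the first promoters of all 27025 genes. A CCAAT box stood in 18 of 20 mitosis promoters (90%) and in 7 of 9 of the others (77.8%), against 37.9% of all. An E2F site stood in 2 of 20 mitosis promoters (10%) and in 4 of 9 of the others (44.4%), against 4.14% of all. The E-box was in 1 of 29 promoters, that of Tyms (3.45%, against 7.24% of all).

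The promoter stretches of 5 genes are shown, chosen as examples: mitosis genes with CHR and CCAAT (Mki67, Top2a), Cdk1 with E2F besides, a replication gene with E2F and CCAAT (Mcm6), and Tk1 with none of the letters. Other members had other layouts, such as a CCAAT box alone in Pcna, Rrm2 and Cenpe, and CHR with CCAAT in Mcm2. Each is 150 bases of the gene's strand, 5′ to 3′, from upstream of any annotated exon. Capitals mark the matches. The stretch of Mki67 (chr7:135716380-135716529, minus strand) holds 1 CCAAT box and 2 CHR elements, that of Top2a (chr11:99024190-99024339, minus strand) 4 CCAAT boxes and 3 CHR elements, that of Cdk1 (chr10:69352939-69353088, minus strand) 1 E2F site, 2 CCAAT boxes and 1 CHR element, that of Mcm6 (chr1:128359706-128359855, minus strand) 3 E2F sites, 2 of them overlapping, and 2 CCAAT boxes, and that of Tk1 (chr11:117826093-117826242, minus strand) no match.
Mki67: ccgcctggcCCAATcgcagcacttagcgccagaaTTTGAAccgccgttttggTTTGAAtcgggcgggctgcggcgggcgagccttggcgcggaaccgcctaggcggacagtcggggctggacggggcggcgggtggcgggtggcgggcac
Top2a: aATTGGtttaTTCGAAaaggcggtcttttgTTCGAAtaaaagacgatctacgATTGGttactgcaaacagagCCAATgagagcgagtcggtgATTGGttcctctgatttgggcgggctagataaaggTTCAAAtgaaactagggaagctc
Cdk1: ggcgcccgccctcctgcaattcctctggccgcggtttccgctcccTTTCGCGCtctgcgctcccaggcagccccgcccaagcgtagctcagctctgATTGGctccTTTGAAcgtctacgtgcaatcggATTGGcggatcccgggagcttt
Mcm6: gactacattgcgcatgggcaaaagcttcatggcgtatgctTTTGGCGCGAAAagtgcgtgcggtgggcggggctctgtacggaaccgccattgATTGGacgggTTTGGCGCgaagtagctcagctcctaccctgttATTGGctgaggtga
Tk1: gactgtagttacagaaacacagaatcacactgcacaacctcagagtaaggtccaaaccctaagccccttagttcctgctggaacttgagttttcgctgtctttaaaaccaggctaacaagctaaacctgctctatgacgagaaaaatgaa

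**Figure D1:**
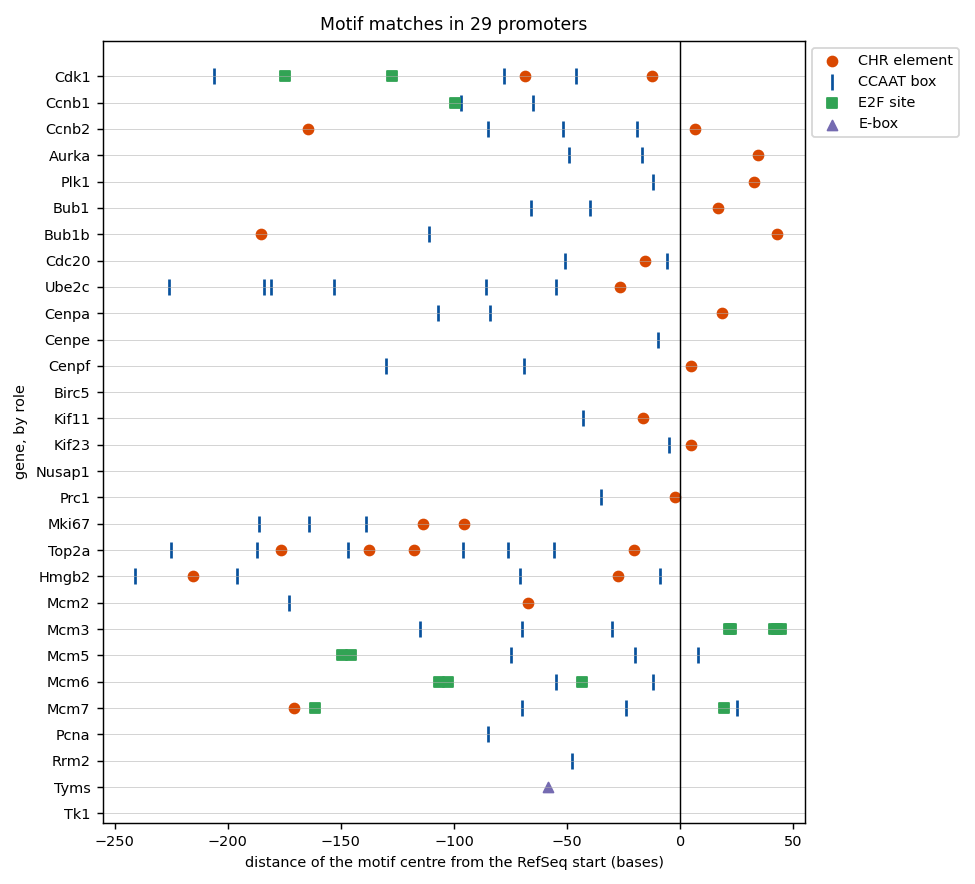
Positions of CHR elements (circles), CCAAT boxes (bars), E2F sites (squares) and E-boxes (triangles) in 29 promoters, as the distance in bases of the motif centre from the RefSeq start. CHR elements and CCAAT boxes recur in the mitosis genes from Cdk1 to Hmgb2, E2F sites in Mcm3, Mcm5, Mcm6, Mcm7, Cdk1 and Ccnb1, and Birc5, Nusap1 and Tk1 have no symbol.

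The letters in a window do not show that a factor binds there. Tk1, Birc5 and Nusap1 had no match in their windows, whereas most of the others had a CCAAT box.

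The levels of the genes spread over a wide range. Compared per kilobase of the gene length in the table, the highest were Pcna at 26.7 CPM per kilobase, Tk1 at 16.4, Hmgb2 at 9.97 and Mcm6 at 7.71, and the lowest were Cenpe at 0.312 and Cenpf at 0.169. The replication clamp and the salvage enzyme of thymidine were thus well above the mitotic kinases and cyclins, of which Ccnb2 was the highest at 2.04 CPM per kilobase and Aurka the lowest at 0.526. Counts in single mice went down to 3 reads for Ccnb1, whose counting error averaged 14.1%, and up to 2127 reads for Tk1, with 2.66%. Counts of Ccna2, Cdc20, Kif20a, Nusap1, Prc1, Mcm7 and Tk1 are uncertain where an oppositely oriented gene overlaps them, since the strand setting of the counting is not given in the sources used here. Counts of Ccnb1, Ccnb2, Pcna and Tyms are likewise uncertain because the table lists pseudogene copies of them.

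The genes differed in how much they varied between mice of the same group. The within-group SD of log2 CPM was 0.75 for the median member, against 0.26 for the median of the 9997 genes whose mean level lay in the range of the members (1.33 to 85.2 CPM). Of the 35 members, 25 were above the 90th percentile of those genes (0.59). The 7 members with an SD under 0.3 were Mcm2 (0.19), Bub1b (0.21), Tk1 (0.25), Mcm6 (0.26), Prc1 (0.27), Pcna (0.27) and Cenpa (0.28), and the most variable was Ccnb1 (1.17), a cyclin of mitotic entry.

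Mki67 (ENSMUSG00000031004, chr7:135689784-135716361, minus strand) encodes Ki-67, which coats mitotic chromosomes, and it shows the spread of the more variable genes. In control mice at ZT0 it ranged from 23.4 to 58.6 CPM with a median of 35.7 CPM. In control mice at ZT12 it ranged from 15.3 to 87.7 CPM with a median of 37.0 CPM. In knockout mice at ZT0 it was 58.6, 26.3, 60.1 and 79.3 CPM. The ZT0 knockout values overlapped both control groups. In knockout mice at ZT12 it was 41.8, 40.8, 77.9, 61.5 and 114 CPM. Its means were 36.1 ± 12.9 (SD, n = 6), 44.7 ± 29.3 (SD, n = 6), 56.1 ± 22.0 (SD, n = 4) and 67.2 ± 30.2 CPM (SD, n = 5) in that order of groups. Neighbouring groups in this order differed by less than their SDs. At ZT0 the genotypes differed by more than the SD of control mice and by less than that of knockout mice. At ZT12 they differed by less than both SDs.

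The same mice were high across the genes. Control ZT12 replicate 3 was the highest of its group for 31 of 35 genes, knockout ZT12 replicate 5 for 31, control ZT0 replicate 6 for 26 and knockout ZT0 replicate 4 for 21. At the other end, knockout ZT0 replicate 2 was the lowest of its group for 32 genes, knockout ZT12 replicate 1 for 22 and control ZT12 replicate 2 for 18. Summed over the 35 genes, the level ran from 364 CPM in control ZT12 replicate 2 to 805 CPM in control ZT12 replicate 3, both mice of 1 group.

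**Figure D2:**
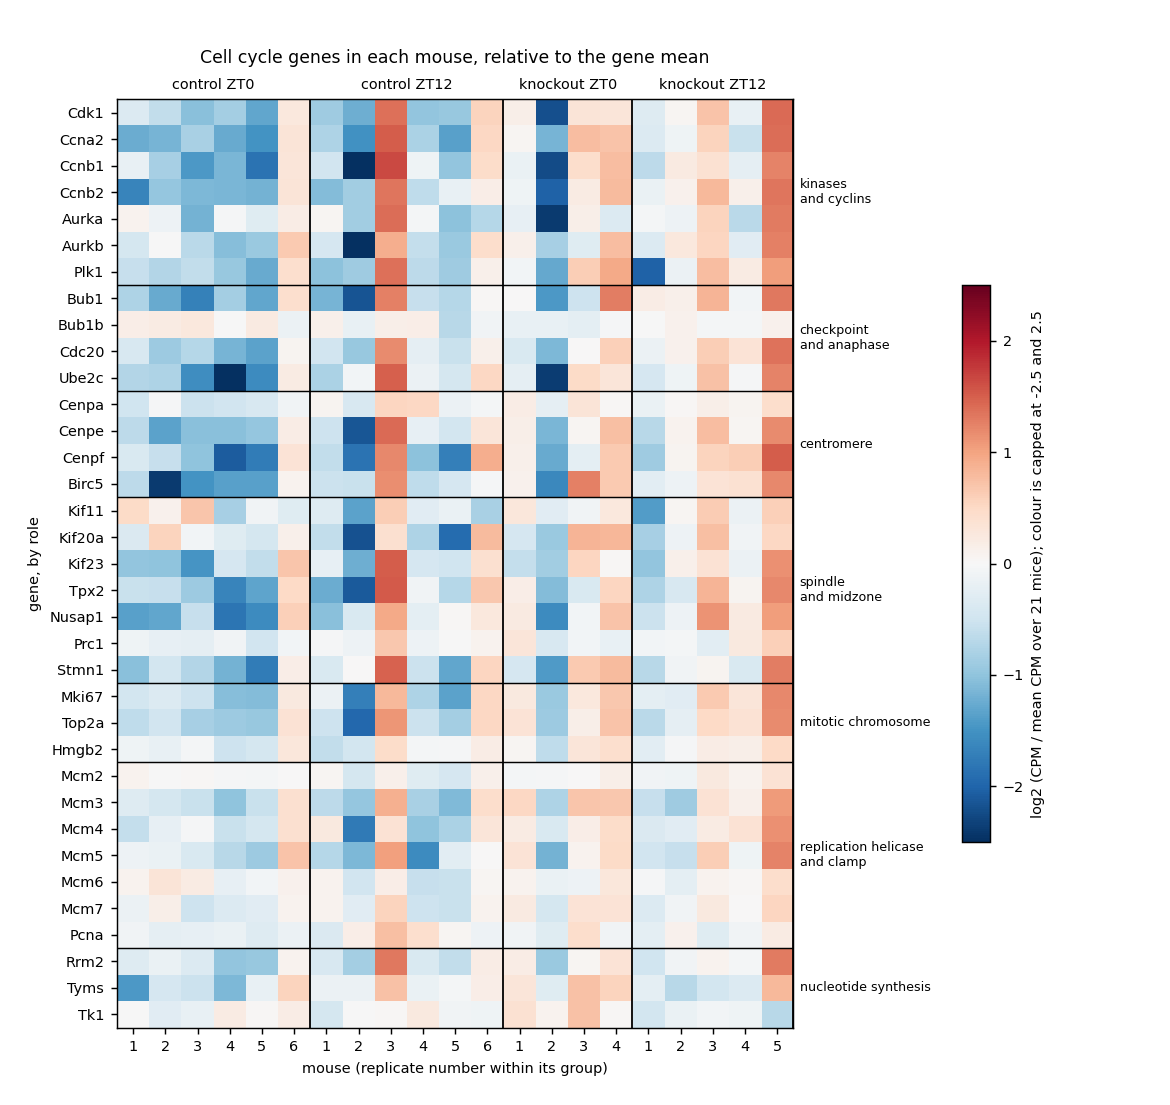
Colours show log2 of CPM over the gene's mean for 35 genes (rows, by role) and 21 mice (columns, replicate number within group). Control ZT0 replicate 6, control ZT12 replicate 3 and knockout ZT12 replicate 5 are among the mice red in most rows. Knockout ZT0 replicate 2 is blue in most, while Bub1b, Mcm2, Mcm6, Prc1 and Tk1 stay pale. Summed over the 35 genes, knockout ZT0 replicates 3 and 4 (636 and 626 CPM) and knockout ZT12 replicate 3 (585 CPM) were above control ZT0 replicate 6 (562 CPM).

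Mouse by mouse, most genes moved with Mki67. The correlations below are of deviations of log2 CPM from the group mean over 21 mice, and they share the libraries, their scaling and their immunoglobulin share, so they are descriptions. Of the other 34 members, 25 (73.5%) had a Pearson r of at least 0.7, against 1.04% of all genes tested, and the median r was 0.83 against 0.04. The highest were Top2a, which untangles DNA strands (r = 0.95, Spearman's rho 0.95), and the kinetochore gene Cenpf (r = 0.95, rho 0.90), followed by the helicase subunit Mcm3 (r = 0.93, rho 0.92). Without control ZT12 replicates 2 and 3, the mice farthest from the median of Mki67, 23 of 34 stayed at 0.7 or above. Within control mice 21 of 34 reached it, against 637 of all 20255 genes tested other than Mki67. Within knockout mice 29 of 34 did, against 683 of those 20255 genes.

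Replication and mitosis genes varied together. The median r was 0.66 over the 250 pairs of a replication or nucleotide gene with a mitosis gene, 0.67 over the 45 pairs within replication and nucleotide genes and 0.75 over the 300 pairs within mitosis genes. The steady Mcm2 (r = 0.87) and Mcm6 (r = 0.84), both helicase subunits, moved with Mki67 over a narrower range. Pcna (r = 0.25), Bub1b (r = 0.35) and Tk1 (r = -0.11) lay inside the range from -0.47 to 0.51 that holds the middle 90% of all genes tested. Outside the chosen genes, 30 of 40 other mitosis genes and 12 of 30 other replication genes were at 0.7 or above, and 3 of 32 cell cycle regulators.

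**Figure D3:**
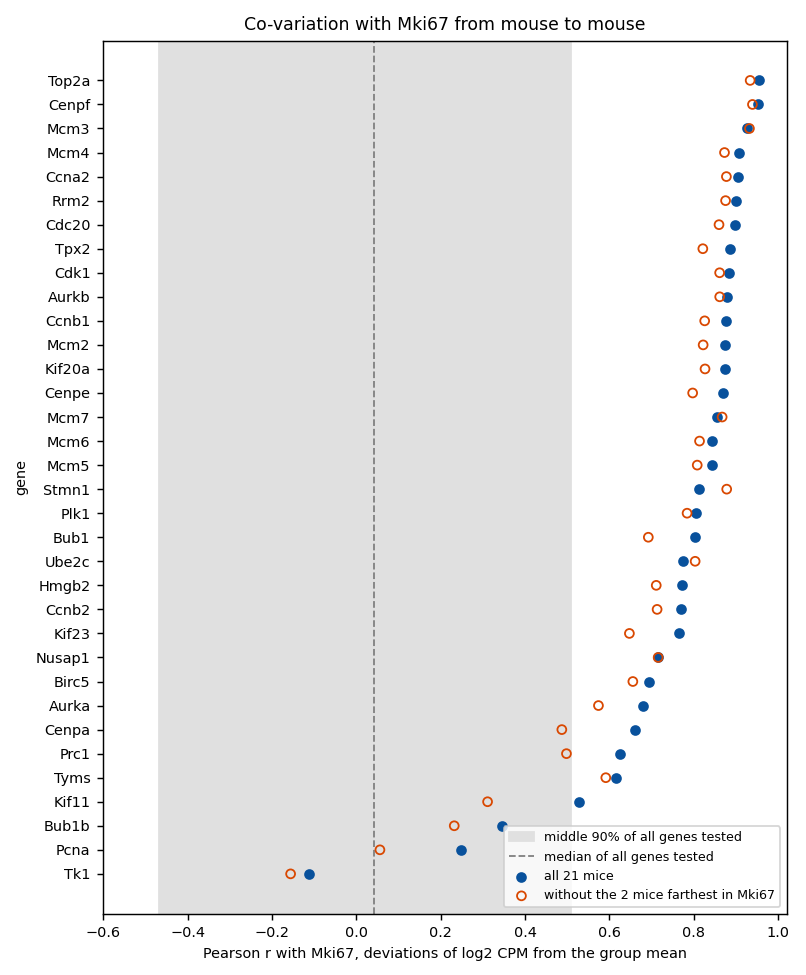
Pearson r with Mki67 for 34 genes, over 21 mice (filled) and without the 2 mice farthest in Mki67 (open), with the middle 90% of all genes tested in grey (-0.47 to 0.51). Most genes lie between 0.6 and 0.95, and Bub1b, Pcna and Tk1 lie inside the grey band.

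Markers of other cells and the PC genes themselves moved with Mki67 to different degrees. Of the 7 PC markers, Jchain, which joins IgA into dimers, had r = -0.77, Igha -0.67, the transcription factor Xbp1 -0.51 and Sdc1, which encodes CD138, -0.36. Tnfrsf17 (-0.09), Prdm1 (-0.01) and Irf4 (0.27) were near 0 or above it. Within knockout mice Jchain, Igha and Xbp1 were at -0.36, -0.20 and -0.07, against -0.94, -0.85 and -0.78 within control mice. The share of reads on immunoglobulin genes had r = -0.56 with Mki67 (rho -0.46), and -0.27 without the 2 farthest mice. None of the 9 B cell, 6 germinal centre, 5 MHC class II, 6 epithelial, 5 T cell or 5 myeloid markers reached 0.7 over all 21 mice, with medians of 0.47, 0.32, 0.34, 0.12, 0.49 and 0.33. Pax5 and Cd22 (both 0.65), Fcer2a (0.57), Mybl1 (0.61), Ciita (0.52), Cd3e (0.59) and Cd3g (0.58) were among those above the band that holds the middle 90% of all genes. Within control mice Cd3e (0.89), Pax5 (0.82), H2-Aa (0.74) and Cd22 (0.72) reached 0.7, and within knockout mice Ighd (0.76), Gcsam (0.71) and Epcam (0.70). Of 20255 genes tested, 637 reached it within control mice and 683 within knockout mice. Several of these markers had few reads, with means of 0.42 CPM for Cd3e, 0.88 for Cd22, 0.17 for Fcer2a, 0.38 for Cd3g and 0.40 for Ighd. H2-Aa averaged 50.8 CPM. Summed over each list, B cell markers were at 15.5 to 34.9 CPM, germinal centre markers at 25.0 to 39.7 CPM and MHC class II genes, most of it Cd74, at 1154 to 3033 CPM. Summed epithelial markers were at 516 CPM in control ZT12 replicate 5 and 310 CPM in knockout ZT12 replicate 5, and at no more than 133 CPM in control mice at ZT0 and 76.6 CPM in knockout mice at ZT0. The first of these mice was low in Mki67 (19.8 CPM) and the second the highest (114 CPM), and control ZT12 replicate 3, high in Mki67 (87.7 CPM), had 157 CPM of epithelial markers. Summed T cell markers were at 10.8 to 28.2 CPM and summed myeloid markers at 12.3 to 68.1 CPM. The part of these cells in the levels of the cell cycle genes was not tested.

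In control mice, the comparison of ZT12 with ZT0 asks which genes change between lights off and lights on. None of the 35 genes passed the adjusted threshold of 0.05 (edgeR quasi-likelihood test, Benjamini-Hochberg over all genes), while 1.73% of all genes did. At an unadjusted p under 0.05 there were 4 of 35, all higher at ZT12, against 18.1% of all genes, so the share was below the background. The median log2 fold change was 0.45, with 27 genes above 0, against 0.01 over all genes. Leaving out control ZT12 replicate 3 gave a median of 0.03, and leaving out control ZT0 replicate 6 gave 0.59. The immunoglobulin share was 51.5% to 53.345% in control mice at ZT0 and 53.346% to 63.6% at ZT12. It was thus split completely by time, though the groups nearly met. With it as a covariate the median was 0.87 and 0 genes passed. In these mice a change with time and a change with this share cannot be told apart. Of the 6 epithelial markers tested, 3 had an unadjusted p under 0.05 and all 6 were higher at ZT12 (median 2.66 on the log2 scale), and 2 of the 5 MHC class II genes had such a p (median 0.22). Their part in the result was not tested.

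By role, the median log2 fold change of ZT12 over ZT0 in control mice was 0.57 for kinases and cyclins, 0.62 for checkpoint and anaphase genes, 0.73 for centromere genes, 0.65 for spindle and midzone genes, 0.31 for mitotic chromosome genes, 0.47 for nucleotide synthesis and -0.03 for the helicase and clamp. With library size alone as the scaling, the median of all genes in this comparison moved from 0.01 to -0.20, and 24 members in place of 27 were above 0.

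Among kinases and cyclins, Ccnb2 (ENSMUSG00000032218, chr9:70407692-70421547, minus strand), the B-type cyclin highest in level, ranged from 1.00 to 3.91 CPM in control mice at ZT0 (median 1.43) and from 1.47 to 7.87 CPM at ZT12 (median 2.38). The 4 knockout mice at ZT0 had 2.91, 0.765, 3.60 and 5.37 CPM, and the 5 at ZT12 had 2.77, 3.35, 5.51, 3.41 and 7.85 CPM. All 4 groups overlapped. The fold changes of Cdk1, Ccna2, Ccnb1, Aurka, Aurkb and Plk1 in control mice, on the log2 scale, were 0.57, 0.84, 0.82, 0.24, 0.08 and 0.48, with none under an unadjusted p of 0.05.

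Of the checkpoint and anaphase genes, Ube2c (ENSMUSG00000001403, chr2:164769898-164778822, plus strand), the E2 enzyme of the anaphase-promoting complex, had the largest change of all members in control mice. It ranged from 0.803 to 5.31 CPM at ZT0 (median 2.14) and from 2.68 to 13.0 CPM at ZT12 (median 4.27), and the groups overlapped. This gave a log2 fold change of 1.21 (SE 0.50, adjusted p = 0.211, edgeR; exact permutation p = 0.0519, two-sided), and 0.78 without control ZT12 replicate 3. Levels in knockout mice were 3.96, 0.893, 6.47 and 5.72 CPM (ZT0) and 3.45, 4.26, 7.67, 4.51 and 10.96 CPM (ZT12), a log2 fold change of 0.53 (SE 0.57). Bub1 and Cdc20, of the checkpoint and its target, gave 0.56 and 0.69 in control mice, short of an unadjusted p of 0.05.

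Bub1b (ENSMUSG00000040084, chr2:118598211-118641591, plus strand), which encodes the checkpoint kinase BubR1 and had one of the smaller spreads, was not lower or higher past the threshold in control mice (log2 fold change -0.19, SE 0.11). It ranged from 21.9 to 29.1 CPM in control mice at ZT0 (median 27.5) and from 14.9 to 27.1 CPM at ZT12 (median 24.5). For knockout mice the values were 21.3, 21.2, 20.4 and 23.8 CPM (ZT0) and 23.98, 26.0, 23.3, 23.2 and 26.1 CPM (ZT12). The knockout groups met at 23.8 and 23.2 CPM, so they just overlapped.

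Of the centromere genes, Cenpa (ENSMUSG00000029177, chr5:30666777-30674830, plus strand), the histone H3 variant that marks centromeres, had the smallest p of all members in control mice. It ranged from 15.3 to 21.7 CPM at ZT0 (median 16.3) and from 16.8 to 32.3 CPM at ZT12 (median 22.3). On the log2 scale the change was 0.45 (SE 0.15, adjusted p = 0.111, edgeR; exact permutation p = 0.0390, two-sided), and it was called by DESeq2 (adjusted p = 0.0383). With library size as the only scaling it was 0.26. The 4 knockout mice at ZT0 had 25.4, 18.9, 27.7 and 22.5 CPM, and the 5 at ZT12 had 19.7, 22.6, 24.6, 23.2 and 29.998 CPM, with no separation of the times and a log2 fold change of 0.03 (SE 0.17).

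Birc5 (ENSMUSG00000017716, chr11:117849251-117855743, plus strand), the survivin subunit of the chromosomal passenger complex, ranged from 0.847 to 4.74 CPM in control mice at ZT0 (median 1.73) and from 2.88 to 9.96 CPM at ZT12 (median 3.21). The log2 fold change was 0.98 (SE 0.46, adjusted p = 0.265, edgeR; exact permutation p = 0.0779, two-sided), and 0.57 without control ZT12 replicate 3. Levels in knockout mice were 4.78, 1.47, 10.7 and 7.06 CPM (ZT0) and 3.70, 4.08, 5.65, 5.79 and 10.2 CPM (ZT12), and the times overlapped. Cenpe and Cenpf, kinetochore proteins, gave log2 fold changes of 0.80 and 0.65 in control mice, which did not pass.

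Among spindle and midzone genes, Stmn1 (ENSMUSG00000028832, chr4:134468320-134473843, plus strand), which destabilises microtubules, ranged from 2.15 to 8.02 CPM in control mice at ZT0 (median 3.90) and from 2.91 to 19.9 CPM at ZT12 (median 6.33). For knockout mice the values were 5.39, 2.68, 11.3 and 12.4 CPM (ZT0) and 4.44, 6.75, 7.46, 5.47 and 17.4 CPM (ZT12). All groups overlapped, and the 2 highest values were those of control ZT12 replicate 3 and, next, knockout ZT12 replicate 5. The motor genes Kif11, Kif20a and Kif23 gave -0.35, -0.29 and 0.65 on the log2 scale in control mice, and the microtubule binders Tpx2, Nusap1 and Prc1 gave 0.72, 0.79 and 0.29. None of these passed.

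Of the mitotic chromosome genes, Hmgb2 (ENSMUSG00000054717, chr8:57511907-57515999, plus strand), a chromatin protein of dividing cells, ranged from 21.002 to 36.6 CPM in control mice at ZT0 (median 27.0) and from 19.4 to 41.1 CPM at ZT12 (median 29.1). The 4 knockout mice at ZT0 had 31.1, 19.4, 37.1 and 40.0 CPM, and the 5 at ZT12 had 24.8, 29.5, 34.2, 33.0 and 42.1 CPM. The groups overlapped throughout. For Mki67 the log2 fold change in control mice was 0.31 (95% interval -0.51 to 1.12), and it ran from -0.0026 without control ZT12 replicate 3 to 0.87 with the immunoglobulin share as a covariate. For Top2a it was 0.44 (SE 0.44).

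**Figure D4:**
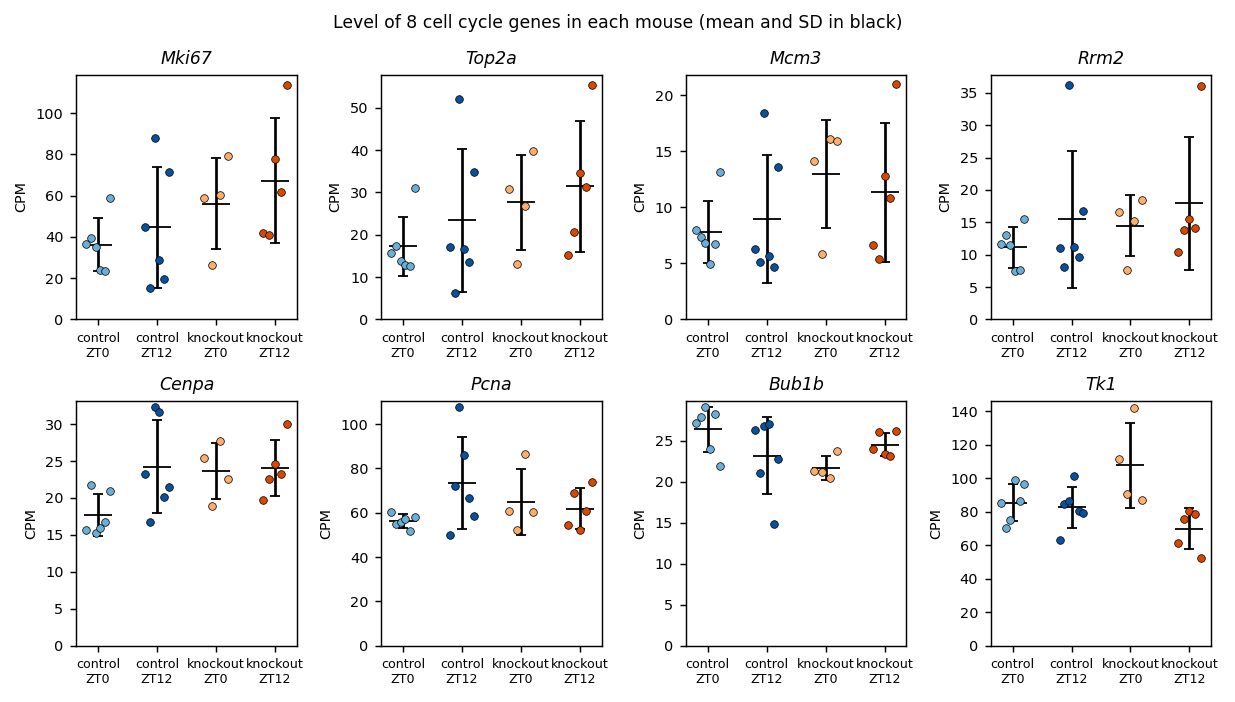
CPM of 8 genes in each mouse by group, with the group mean and SD in black and axes from 0. In both ZT12 groups 1 mouse, control replicate 3 or knockout replicate 5, is the highest for Mki67, Top2a, Mcm3 and Rrm2, while Tk1 lies at 86.9 to 142 CPM in knockout mice at ZT0 and at 52.6 to 80.8 CPM at ZT12.

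Among replication genes, Pcna (ENSMUSG00000027342, chr2:132249162-132253314, minus strand), the sliding clamp, spanned 51.6 to 60.2 CPM in control mice at ZT0 (median 56.4), but 50.1 to 108 CPM at ZT12 (median 69.4). This gave a log2 fold change of 0.38 (SE 0.15, adjusted p = 0.167, edgeR; exact permutation p = 0.0519, two-sided). Without control ZT12 replicate 1, the lowest of its group, it was 0.48 and passed (adjusted p = 0.0439, edgeR). Without control ZT12 replicate 3, the highest, it was 0.25, and with library size as the only scaling 0.18. Levels in knockout mice were 60.6, 52.2, 86.5 and 60.1 CPM (ZT0) and 54.4, 68.7, 52.0, 60.6 and 73.6 CPM (ZT12), and the log2 fold change was -0.07 (SE 0.17).

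Mcm6 (ENSMUSG00000026355, chr1:128331590-128359664, minus strand), a subunit of the helicase, ranged from 31.3 to 45.0 CPM in control mice at ZT0 (median 38.4) and from 24.02 to 40.4 CPM at ZT12 (median 31.5). On the log2 scale the change was -0.26 (SE 0.14, adjusted p = 0.314, edgeR; exact permutation p = 0.104, two-sided), and it was 0.0021 with the immunoglobulin share as a covariate. For knockout mice the values were 38.1, 32.1, 32.9 and 43.8 CPM (ZT0) and 35.3, 30.4, 38.5, 36.9 and 49.1 CPM (ZT12). The other helicase genes Mcm2, Mcm3, Mcm4, Mcm5 and Mcm7 gave -0.13, 0.20, -0.04, -0.03 and 0.11 in control mice, with SEs from 0.11 to 0.44 and none under an unadjusted p of 0.05.

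In knockout mice, 0 of 35 genes passed at ZT12 against ZT0 (0% of all genes), and 1 had an unadjusted p under 0.05, against 8.01% of all genes. The median log2 fold change was 0.18, with 28 genes above 0, and it was -0.08 without knockout ZT12 replicate 5 and 0.23 without knockout ZT0 replicate 3. With the immunoglobulin share as a covariate it was 0.07. All 6 epithelial markers were higher at ZT12 here too (median 2.40 on the log2 scale, 0 with an unadjusted p under 0.05), and their part in the result was not tested. The 1 gene was Tk1 (ENSMUSG00000025574, chr11:117815526-117826092, minus strand), cytosolic thymidine kinase, which recycles thymidine into the deoxynucleotide pool.

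Tk1 was 112, 90.7, 142 and 86.9 CPM in knockout mice at ZT0 and 61.6, 75.7, 80.8, 79.0 and 52.6 CPM at ZT12. The lowest ZT0 mouse (86.9 CPM) was above the highest ZT12 mouse (80.8 CPM). Tk1 was the 1 of 35 members whose groups did not overlap, a share near the 2.63% of all genes. The log2 fold change was -0.62 (SE 0.15, adjusted p = 0.263, edgeR; exact permutation p = 0.00794, two-sided), so it did not pass after adjustment over all genes. That permutation p is the smallest possible for groups of this size and follows from the lack of overlap. DESeq2 called it (adjusted p = 0.0303). Without knockout ZT0 replicate 3, the highest value and a mouse with both sex markers, it was -0.46 (adjusted p = 0.857, edgeR). With each mouse left out in turn, the log2 fold change ran from -0.73 to -0.46.

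In control mice Tk1 ranged from 70.5 to 98.8 CPM at ZT0 (median 85.9) and from 63.1 to 101 CPM at ZT12 (median 82.5). This gave a log2 fold change of -0.05 (SE 0.13), and the groups overlapped almost fully. Tk1 had the lowest r with Mki67 of all members (-0.11, and -0.51 on deviations taken within sex), and in knockout ZT12 replicate 5, the mouse highest in Mki67, it was the lowest of all 21 mice. Tk1 overlaps Afmid on the other strand, which leaves its count uncertain.

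**Figure D5:**
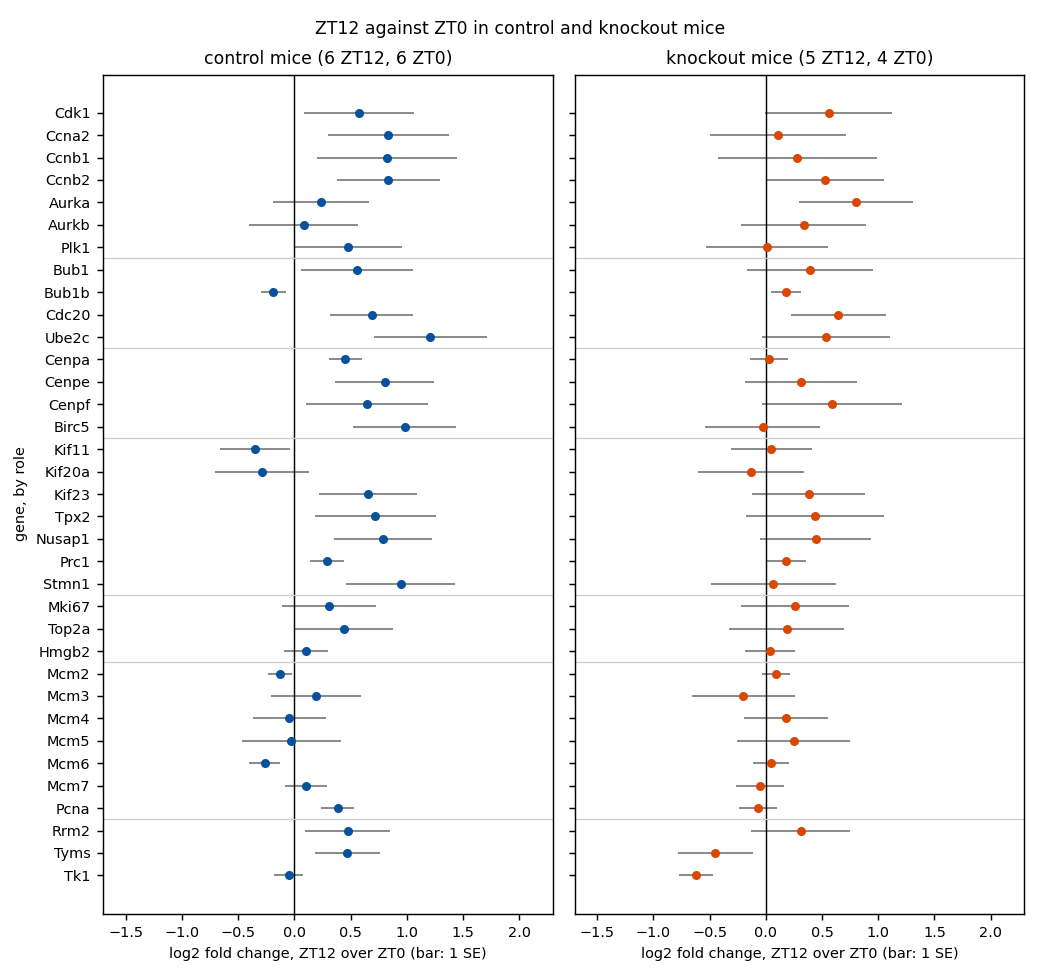
Fitted log2 fold change of ZT12 over ZT0 (points) with 1 SE (bars) for 35 genes by role, in control mice (6 and 6) and knockout mice (5 and 4). In control mice 27 of 35 points lie above 0, and in knockout mice Tk1 (-0.62, SE 0.15) is the point farthest below 0.

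The difference between the genotypes in this change, knockout minus control, was tested as an interaction. None of the 35 genes passed (0% of all genes did), and 3 had an unadjusted p under 0.05, against 10.8% of all genes. The median was -0.17, with 9 genes above 0, and it turned to 0.17 without control ZT12 replicate 3. It was -0.50 without knockout ZT12 replicate 5, -0.14 without knockout ZT0 replicate 3 and -0.74 with the immunoglobulin share as a covariate. With library size alone as the scaling 16 genes were above 0.

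The 5 genes of smallest p in the interaction came from 4 roles. Tk1 gave -0.57 (SE 0.20, adjusted p = 0.442, edgeR), and -0.41 without knockout ZT0 replicate 3. Bub1b gave 0.36 (SE 0.17, adjusted p = 0.455), and Pcna and Cenpa gave -0.45 (SE 0.22, adjusted p = 0.462) and -0.43 (SE 0.22, adjusted p = 0.481). Without knockout ZT0 replicate 3 Pcna gave -0.28 and Cenpa -0.34, and without knockout ZT12 replicate 5 they gave -0.54 and -0.53. Among the other settings, library size as the only scaling gave -0.37 for Tk1, 0.53 for Bub1b, -0.25 for Pcna and -0.25 for Cenpa.

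Tyms (ENSMUSG00000025747, chr5:30058202-30073617, minus strand), thymidylate synthase, gave an interaction of -0.92 (SE 0.45, adjusted p = 0.462, edgeR), with -1.28 without knockout ZT12 replicate 5 and -0.78 without knockout ZT0 replicate 3. It ranged from 1.53 to 6.14 CPM in control mice at ZT0 (median 3.00) and from 3.68 to 6.89 CPM at ZT12 (median 3.88). The 4 knockout mice at ZT0 had 5.11, 3.38, 6.94 and 6.11 CPM, and the 5 at ZT12 had 3.51, 2.56, 3.03, 3.28 and 7.32 CPM. At ZT12, 4 of the 5 knockout mice were below every control mouse, and the other, replicate 5, was above every control mouse. Rrm2, the small subunit of ribonucleotide reductase and the third nucleotide gene, gave -0.17 (SE 0.58).

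Between genotypes at ZT0, 0 of 35 genes passed, as did 0.00987% of all genes. At an unadjusted p under 0.05 there were 5 genes, against 4.9% of all genes: Birc5, Cenpa, Tyms and Tk1 were higher in knockout mice (log2 1.41, 0.42, 0.74 and 0.33) and Bub1b lower (-0.28). The median was 0.48, with 31 genes above 0, and it lay between 0.28 and 0.75 with each mouse left out and at 0.89 with the immunoglobulin share as a covariate. By role the medians were 0.72 for kinases and cyclins, 0.68 for checkpoint and anaphase genes, 0.73 for centromere genes, 0.33 for spindle and midzone genes, 0.64 for mitotic chromosome genes, 0.38 for nucleotide synthesis and 0.22 for the helicase and clamp. For Mki67 the difference was 0.64 (95% interval -0.26 to 1.54), which includes 0. Without knockout ZT0 replicate 3 the median was 0.45, and no gene then had an unadjusted p under 0.05.

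Between genotypes at ZT12, 0 of 35 genes passed, as did 0.0148% of all genes. Mcm2 (log2 0.23) alone had an unadjusted p under 0.05, against 8.83% of all genes. The median was 0.30, with 30 genes above 0, and leaving out knockout ZT12 replicate 5 gave 0.05 and leaving out control ZT12 replicate 3 gave 0.70. With the immunoglobulin share as a covariate it was 0.12. For Mki67 the difference was 0.59 (95% interval -0.26 to 1.44). These 2 comparisons share mice with those of ZT12 against ZT0.

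Sex was read from Xist (female above 100 CPM) and was close to balanced over the groups. Females were 3 of 6 mice in each control group, 2 of 4 knockout mice at ZT0 and 2 of 5 at ZT12. Knockout ZT0 replicate 3 and knockout ZT12 replicate 5, counted as female, also had Ddx3y, so their sex is uncertain. With sex as a term the medians were 0.40, 0.17, -0.16, 0.51 and 0.35 in the order control ZT12 against ZT0, knockout ZT12 against ZT0, interaction, ZT0 and ZT12, and no gene passed. No label gives a batch, so batches were not compared. The count columns go through the groups repeatedly, in an order that cuts across the replicate numbers. The first run holds control ZT0 replicates 1 to 3, control ZT12 replicates 1 and 2, and replicate 1 of each knockout group. All of these mice were female by Xist. What the column order stands for is not given, and its part in the results was not tested.

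Other genes of the cycle, 102 in all, were read beside the 35. In control mice at ZT12 against ZT0 the median log2 fold change was 0.56 over 40 other mitosis genes (38 above 0), 0.07 over 30 other replication genes (16 above 0) and 0.14 over 32 regulators (20 above 0). Only 1 of the 102 passed, a share below the 1.73% of all genes. It was Rb1, the retinoblastoma protein that holds E2F in check, with a mean of 23.8 ± 3.20 CPM at ZT0 and of 17.6 ± 2.80 CPM at ZT12 (SD, n = 6 each) and overlapping groups. It fell by 0.43 on the log2 scale (SE 0.11, adjusted p = 0.0451, edgeR). That value is near the threshold, and 20 of 32 alternative settings left it above the threshold, with adjusted p from 0.0129 to 0.587 over all of them. In knockout mice its means were 23.0 ± 3.22 CPM at ZT0 (SD, n = 4) and 19.4 ± 1.42 CPM at ZT12 (SD, n = 5). The log2 fold change there was -0.24, and the interaction was 0.18 (SE 0.17). In the other 4 comparisons no gene of the 102 passed.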

How the data were processed

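Poly-A RNA of IgA+ plasma cells from 21 mice was sequenced, and the authors deposited whole-number counts of reads per gene, with no normalization, differing in their totals. The aligner, the counter, its strand setting and the genome build are not given in the sources used here. Coordinates in the table were taken as GRCm38: of 53620 genes found in GENCODE M21, 52019 had identical ones (34 of the 35 members). The filter kept genes summing to at least 10 counts, as in the study's methods, scaled by TMM and fitted with edgeR 4.0.16 (R 4.3.3) by robust quasi-likelihood to 4 group means, with Benjamini-Hochberg adjustment over 20256 genes and a threshold of 0.05. CPM are TMM-scaled. Intervals of 95% are the fold change with 1.96 SE on either side. For correlations, log2 CPM had a prior count of 2. For exact permutation tests every division of the mice was enumerated, and their p-values are unadjusted.

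The members and gene lists were chosen with earlier results of these data known. All 35 members were named by role. Statistics were given for the 5 of smallest p in control mice and in the interaction, and values of each mouse for these and for the member of highest level per kilobase in each role. Mki67 as the reference of the correlations, Tk1 in knockout mice, Top2a and sex were chosen after values were seen. Both tools (DESeq2 1.42.0) were tested on simulated data for the control comparison, where edgeR found 187 of the changed genes with 7 false calls over 19879 genes. The simulation gave all genes 1 spread and changed only genes above a floor of counts. It therefore does not measure how well a change in the members, many of them low or variable, would be found. Alternatives were DESeq2, its size factors, library size only, immunoglobulin genes removed, other count filters, a threshold of 0.01, each comparison's own groups, a replicate block, the immunoglobulin share as a covariate, each mouse left out in turn and, added after seeing the data, sex as a term. No library was a repeat of another: over 46 pairs of mice sharing a group, the chi-square per gene was 26.5 to 216, above sampling noise. Separate mice are taken from the study, and a low count carries a counting error, given as a percentage, that does not cover library preparation.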

Additional observations from a re-analysis of the deposited data

Results flagged for a closer look

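Of 140 tests of a group of 4 to 6 mice for a value far from the rest, one for each gene and group, 25 were flagged, in 19 genes. For normally distributed values chance flags about 1 in 20, and the genes of 1 mouse are not independent. The values tested were CPM without a log transform, which can be skewed, and their rate of flags by chance was not worked out. Knockout ZT0 replicate 2 stood apart, as the lowest, with 0.829 CPM for Cdk1 (nearest mouse 4.23). Control ZT0 replicate 6 was far above its group for 11 genes. Its levels were 6.09 CPM for Ccna2 (next highest mouse 2.75), 3.91 CPM for Ccnb2 (next highest mouse 1.59) and 2.71 CPM for Plk1 (next highest mouse 1.35). It had 2.55 CPM for Bub1 (next highest mouse 1.12), 3.07 CPM for Cenpe (next highest mouse 1.71) and 4.17 CPM for Kif23 (next highest mouse 1.91). Further levels were 6.30 CPM for Tpx2 (next highest mouse 3.00), 4.32 CPM for Nusap1 (next highest mouse 1.90) and 31.1 CPM for Top2a (next highest mouse 17.4). It also had 13.1 CPM for Mcm3 (next highest mouse 7.95) and 16.5 CPM for Mcm5 (next highest mouse 9.13). Control ZT12 replicate 3 was far above its group for 10 genes. Its levels were 7.87 CPM for Ccnb2 (next highest mouse 3.50), 3.50 CPM for Aurka (next highest mouse 1.39) and 5.23 CPM for Plk1 (next highest mouse 2.19). It had 4.55 CPM for Bub1 (next highest mouse 1.94), 15.7 CPM for Cdc20 (next highest mouse 7.63) and 9.96 CPM for Birc5 (next highest mouse 4.38). Further levels were 7.32 CPM for Kif23 (next highest mouse 3.38), 19.7 CPM for Prc1 (next highest mouse 13.2) and 36.3 CPM for Rrm2 (next highest mouse 16.7). It also had 6.89 CPM for Tyms (next highest mouse 4.69). Knockout ZT12 replicate 5 stood apart, as the highest, with 17.4 CPM for Stmn1 (nearest mouse 7.46), 36.0 CPM for Rrm2 (nearest mouse 15.5) and 7.32 CPM for Tyms (nearest mouse 3.51).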

How the results depend on the processing

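Of the values recomputed under each alternative setting, 696 were labelled the same, 20 weaker, 3 stronger, 3 moved and 2 reversed. A single gene was the same if it kept its direction and side of the threshold, and a number of members called if it stayed at 0. A median was the same if it moved by less than 0.59, the SD of a mouse's median member level, whatever its sign. DESeq2 gave 1 gene called in control mice (Cenpa, log2 0.48) and 1 in knockout mice (Tk1, log2 -0.63), where edgeR gave 0, and it called 1073 of 11599 and 64 of 10034 genes in all, against 350 and 0 by edgeR. Over all genes, control mice had 14 calls at a threshold of 0.01, 38 on their own groups, 0 with the immunoglobulin share as a covariate and 31 to 944 with each mouse left out. With each mouse left out in turn, 0 to 1 members were called in control mice (Pcna, without control ZT12 replicate 1) and 0 in the other 4 comparisons. The value of Mcm6 in control mice turned from -0.26 to 0.0021 with the immunoglobulin share as a covariate, and that of Mki67 turned from 0.31 to -0.0026 without control ZT12 replicate 3 (0.50 without control ZT0 replicate 6). The cause was not tested. The call of Rb1 was lost under 20 of 32 settings.

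With each mouse left out, the median of the 35 genes ran from 0.03 to 0.59 in control mice, -0.08 to 0.35 in knockout mice, -0.50 to 0.17 in the interaction, 0.28 to 0.75 between genotypes at ZT0 and 0.05 to 0.70 at ZT12. The immunoglobulin share as a covariate gave medians of 0.87, 0.07, -0.74, 0.89 and 0.12 in the same order. The interaction on its own groups was not run, since it uses all 4. With a replicate block 0 members were called in every comparison and the medians were 0.34, 0.12, -0.13, 0.60 and 0.52, while 183 genes in all were called in control mice. Most same-numbered mice did not pair (correlation of their deviations -0.15 to 0.48, over 0.1 in 4 of 28 pairs), so the numbers are used here to name mice. The check compares equal numbers only and cannot show that the numbers carry no structure. Replicate 1, for example, was female by Xist in all 4 groups. Counts as low as 3 per mouse limit the lowest genes, and the interval of Ccnb1 in control mice ran from -0.39 to 2.04.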
